A study of Mus musculus with 104 samples.

Results

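Junctions joined to a single double-strand break on mouse chromosome 15 were compared between neural progenitor cells (NPC) and the embryonic stem cells (ESC) from which they were differentiated, both treated with the solvent DMSO. The comparison took its members from the labels: the 16 experiments of 104 in the series that carry the chromosome 15 bait and DMSO, 4 each for ESC line 1, ESC line 2, NPC line 1 and NPC line 2. All 4 groups have the genotype Xrcc4-/- p53-/- and the strain C57BL/6/129SVE, so both cell types lack the end-joining factor Xrcc4 and the tumour suppressor p53. ESC were grown with serum and NPC in serum-free neural media. The series asked whether clusters of recurrent breaks arise in NPC when replication is disturbed with aphidicolin (APH), and the DMSO experiments are the background of that question. The values are genomic junctions and carry no expression, so the labelled cell types could not be checked against marker genes.

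In high-throughput genome-wide translocation sequencing (HTGTS), a break is made at a fixed bait site, and the sequences to which its end becomes joined are amplified and read. Most joins are to the other end of the same break, after some bases are lost, and the rest report breaks elsewhere. Xrcc4 is the partner of DNA ligase IV in classical end joining. Cells without it join through alternative end joining, which is known for a frequent use of short shared bases, called microhomology, at the join. A break on the same chromosome is joined more often than one on another, because the ends lie closer in the nucleus.

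The bait bases are shown first because the sites described further on resemble them. On the minus strand of chromosome 15 (build mm9), with the break after base 17 of 20 and the 3 bases next to the target in capitals, they read:
bait, chr15:86848203-86848225, minus strand: caaggtcaaggtgaacacgtAGG
The bait alignment starts most often at 86848129, and its ends place the break itself after 86848208. All distances are from the latter. A motif of 2 G after any base, as in AGG, is the one that Cas9 of Streptococcus pyogenes needs beside its target, but no source used here names the nuclease.

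The 4 tables did not hold 16 separate libraries. Experiments B and C of NPC line 2 had 57.2 and 67.4% of their distant junctions (position, strand and read ends) in common with experiments B and C of NPC line 1. Experiments A and D of NPC line 2 had 61.6 and 55.1% in common with experiments A and C of NPC line 1 under APH. Pairs within NPC line 1 shared 0.266 to 3.46%. NPC line 1 A and D recurred in rows without an experiment letter of the NPC line 2 APH table, at 54.0 and 56.8%. The line of the NPC libraries therefore rests on the line 1 labels alone. So does the treatment of NPC line 1 A and D, which recur in an APH table. NPC line 2 A and D are labelled DMSO but match APH libraries. Neither line nor treatment of these libraries could be settled. Line 1 was taken as the main comparison, 4 ESC against 4 NPC experiments, and values over the 16 labelled experiments are given beside it. ESC line 1 B also shared 13.7% with NPC line 1 B, against 1.36% at most for pairs of ESC A, C or D with NPC line 1, so results are given with and without it where it bears on them. ESC line 1 C was read in another sequencing run than the other 7 experiments. The labels do not say whether experiments are separate cultures, so p-values measure the spread between experiments, which may be technical.

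Depth differed between the cell types. The ESC experiments of line 1 held 9857 to 13173 junctions, of which 1745 to 2470 lay beyond 5 Mb of the break or on other chromosomes. Those of NPC line 1 held 18355 to 32928 and 6673 to 12406. The 4 NPC experiments thus gave 36265 distant junctions and the 4 ESC experiments 7935, and what follows is limited by the ESC side.

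A smaller share of junctions lay close to the break in NPC than in ESC. Within 10 kb of the break lay 80.7, 77.4, 78.3 and 80.4% of the junctions in ESC experiments A to D, and 59.5, 60.2, 58.6 and 58.3% in NPC. Every NPC experiment lay below every ESC experiment. The means were 79.2% ± 1.6 (SD, n = 4) and 59.2% ± 0.85 (SD, n = 4), a difference of -20.0 percentage points (exact permutation test, two-sided, p = 0.0286, the smallest that 4 against 4 can give; 0.031 adjusted over 13 shares). ESC line 2 had 79.0% ± 4.6 (SD, n = 4), and with the 8 ESC experiments of both lines the difference was -19.9 points (exact permutation p = 0.00202). The labelled line 2 comparison gave -23.7 points. The second reading of NPC libraries B and C, in the NPC line 2 table, differed from the first by 0.803 points at most. This measures only the error of reading the same library again, not that of making a library.

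The share on other chromosomes was the one that was larger by a like amount in NPC. Other chromosomes held 13.8, 16.9, 16.7 and 14.6% of the junctions in ESC and 32.7, 32.3, 34.0 and 34.1% in NPC, with no overlap. This was a mean of 15.5% ± 1.5 (SD, n = 4) in ESC and 33.3% ± 0.90 (SD, n = 4) in NPC. Chromosome 15 beyond 5 Mb rose from 2.15% ± 0.34 to 3.79% ± 0.11 (SD, n = 4 each), and 10 kb to 5 Mb from 3.18% ± 0.17 to 3.75% ± 0.23 (SD, n = 4 each). Each of these 3 differences had an exact permutation p of 0.0286. Of the 13 shares, 12 passed at an adjusted exact p under 0.05, which is 92.3%, so a single pass among them carries little weight. When each position and strand was counted once per experiment, the difference within 10 kb was -25.2 points and on other chromosomes 23.1 points, and that from 10 kb to 5 Mb fell to 0.123 points and no longer passed.

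**Figure D1:**
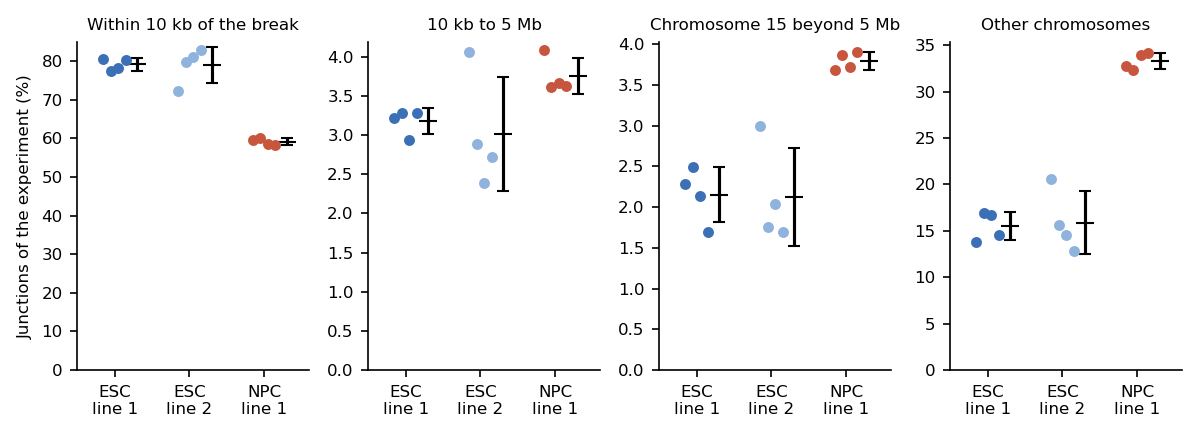
Percent of an experiment's junctions (vertical axes, from 0) within 10 kb of the break, from 10 kb to 5 Mb, on chromosome 15 beyond 5 Mb and on other chromosomes, for 4 experiments each of ESC line 1, ESC line 2 and NPC line 1 (points), with mean and SD (bars). The NPC experiments lie between 58.3 and 60.2% within 10 kb and between 32.3 and 34.1% on other chromosomes, apart from all 8 ESC experiments.

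At the bait itself, NPC joins had lost more bases, as counted over all junctions. The cell types differed in where their joins lay, and whether bait loss differed among joins at like distance from the break was not tested. The bait was aligned to within 2 bases of the break, or past it, in 34.4, 30.8, 32.7 and 35.7% of the junctions in ESC. In NPC this held for 18.5, 18.1, 17.4 and 18.4%. Alignments past the break are part of these shares, at 9.85, 8.14, 9.71 and 10.2% of junctions in ESC and 4.04, 3.84, 3.54 and 3.94% in NPC. The mean fell from 33.4% ± 2.1 to 18.1% ± 0.50 (SD, n = 4 each; exact permutation p = 0.0286, adjusted 0.0444 over 14 measures added after the data were seen). Of these 14 measures 9 passed, which is 64.3%. The median number of bait bases missing was 4 to 5 in the ESC experiments and 8 to 9 in the NPC experiments of line 1. Among joins not aligned past the break it was 5 to 6 in ESC and 9 in NPC. In ESC line 2 the bait reached to within 2 bases of the break or past it in 33.7% ± 3.1 (SD, n = 4).

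On the other side of the break, joins downstream on the plus strand, the class that rejoining of both ends gives, made up most of the junctions within 10 kb. They made up 74.3% ± 0.53 of these in ESC and 68.9% ± 0.52 in NPC (SD, n = 4 each; exact permutation p = 0.0286). Upstream joins on the minus strand rose from 11.5% ± 0.24 to 15.98% ± 0.39, and downstream joins on the minus strand from 8.40% ± 0.26 to 9.93% ± 0.31 (SD, n = 4 each; exact permutation p = 0.0286 for both). Upstream joins on the plus strand were 5.88% ± 0.20 and 5.19% ± 0.23, a difference that passed in line 1 (exact permutation p = 0.0286) but not against the 8 ESC experiments (exact permutation p = 0.0707).

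The rejoined ends also lay farther out in NPC. The median distance of downstream plus-strand joins was 651, 684.5, 691 and 661 bp in ESC and 840, 952, 936.5 and 957 bp in NPC. All NPC medians exceeded all ESC medians (exact permutation p = 0.0286), and the means were 672 bp ± 19 and 921 bp ± 55 (SD, n = 4 each). The first 250 bp held 28.0% ± 0.89 of this class in ESC and 20.9% ± 1.4 in NPC, while the step from 3000 to 3250 bp held 1.47% ± 0.14 and 2.39% ± 0.19 (SD, n = 4 each). Upstream minus-strand joins went the other way, with median distances of 1655 bp ± 65 in ESC and 1533 bp ± 29 in NPC (SD, n = 4 each; exact permutation p = 0.0286). This last difference turned to 105 bp farther in NPC when each position was counted once, so its direction depends on repeated junctions.

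**Figure D2:**
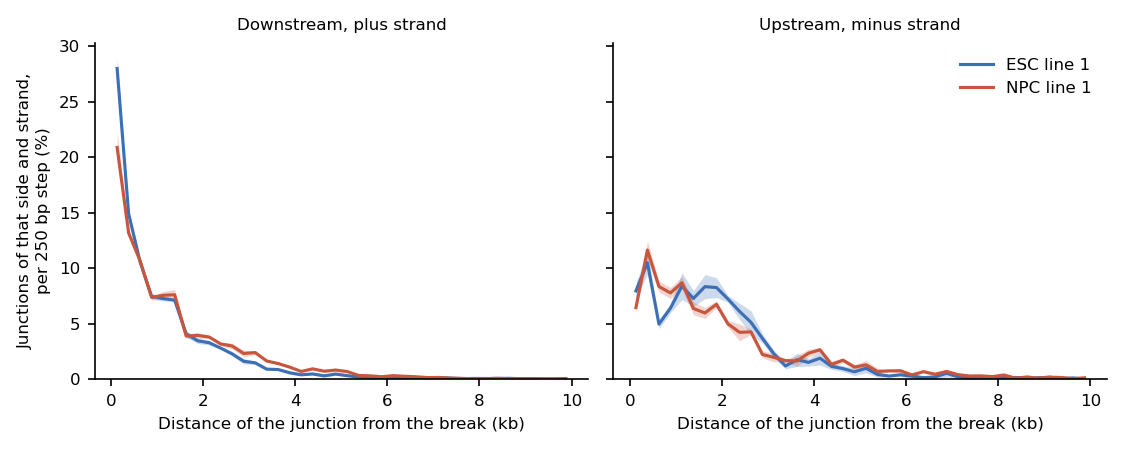
Share of the junctions of one side and strand (vertical axis, percent per 250 bp step) against distance from the break (horizontal axis, kb), for ESC and NPC line 1 (lines, mean of 4 experiments, with bands of 1 SD). On the downstream plus side the first step holds 28.0% in ESC and 20.9% in NPC, and the NPC line lies above the ESC line at 3 kb.

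Microhomology was more frequent in NPC, and inserted bases less so. Joins with at least 1 shared base made up 60.2, 64.1, 56.2 and 60.8% of all joins in ESC and 69.4, 69.4, 68.9 and 68.8% in NPC, without overlap. Their means were 60.3% ± 3.2 and 69.1% ± 0.31 (SD, n = 4 each; exact permutation p = 0.0286). Joins with 4 or more shared bases rose from 12.50% ± 0.84 to 16.8% ± 0.27, inserted bases fell from 30.2% ± 3.4 to 22.2% ± 0.37, and blunt joins were 9.48% ± 0.21 and 8.64% ± 0.25 (SD, n = 4 each; exact permutation p = 0.0286 for each). ESC line 2 had 61.5% ± 1.3 with shared bases and 29.4% ± 1.3 with inserted bases (SD, n = 4). When each position and strand was counted once, the differences were 6.98 points for microhomology and -5.85 points for inserted bases.

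The 2 cell types differed in where their joins lay, so joins were also compared within a zone. Beyond 5 Mb, microhomology was found at 68.3, 74.2, 57.6 and 67.8% of the joins in ESC and 78.4, 78.7, 77.6 and 77.8% in NPC. The ESC values were widely spread, with the lowest in experiment C, the one from another sequencing run, and all lay below NPC. Inserted bases were found at 24.7, 19.4, 36.9 and 26.0% in ESC and 16.1, 15.7, 16.8 and 16.2% in NPC (exact permutation p = 0.0286, adjusted 0.0444, for both). Without ESC line 1 C the difference in inserted bases was -7.18 points, and over all 4 it was -10.6 points. Insertions of 10 or more bases were 9.71% ± 5.0 in ESC and 3.11% ± 0.28 in NPC (SD, n = 4 each), a difference of -6.60 points that was -4.20 points without ESC C, where they reached 16.9%. Leaving out 10 kb on either side of the narrow sites described below, inserted bases were 25.8% ± 7.0 and 16.1% ± 0.40 (SD, n = 4 each), so the difference was of similar size without them.

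Within 10 kb the joins differed less. Microhomology was found at 58.4% ± 2.4 in ESC and 62.9% ± 0.52 in NPC (SD, n = 4 each), a difference of 4.58 points (exact permutation p = 0.0286). With each position counted once it was 0.418 points and did not pass, and the difference in inserted bases went from -4.92 to -0.724 points. Near the break, the difference was thus much smaller over distinct positions than over all junctions.

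**Figure D3:**
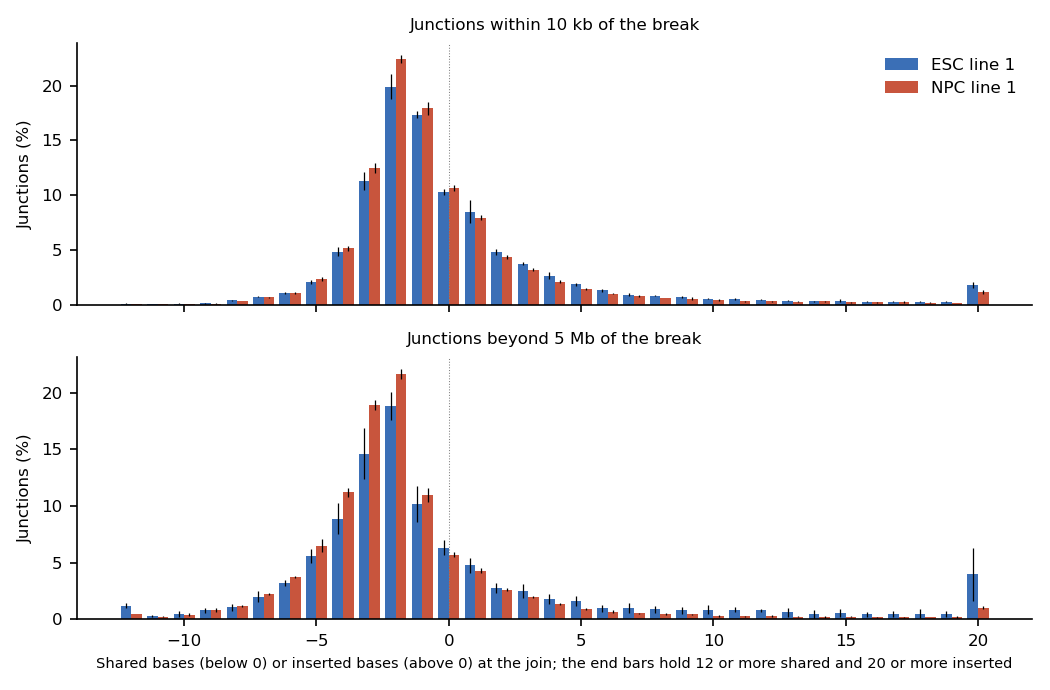
Percent of joins (vertical axes) by the number of bases shared by both sides (below 0 on the horizontal axis) or inserted between them (above 0), within 10 kb (top) and beyond 5 Mb (bottom), for line 1 (bars, mean of 4 experiments; lines, SD; end bars hold 12 or more shared and 20 or more inserted bases). Beyond 5 Mb, 3 shared bases occur in 14.6% of ESC and 18.95% of NPC joins, and the last bar holds 3.95% in ESC and 1.01% in NPC.

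Among distant junctions, shares per chromosome or distance class differed by 1.79 percentage points at most between the means. Of 23 classes (19 other chromosomes and 4 distance classes of chromosome 15), 10 had NPC and ESC experiments that did not overlap, which is 43.5%, but none passed after adjustment in line 1 (smallest adjusted exact permutation p = 0.0657; 10 of 23 had an unadjusted p of 0.0286). As 0.0286 is the smallest p of this test, passing depended on how many classes reached it, not on the size of a difference. Chromosome 15 from 10 to 20 Mb took 4.21% ± 0.47 of distant junctions in ESC and 2.42% ± 0.098 in NPC, and from 5 to 10 Mb 2.67% ± 0.33 and 1.95% ± 0.10 (SD, n = 4 each). Chromosome 11 took 4.61% ± 0.67 and 6.17% ± 0.42, and chromosome 4 took 5.76% ± 0.55 and 6.80% ± 0.20 (SD, n = 4 each). Against the 8 ESC experiments these 4 passed (adjusted exact permutation p = 0.0116 for each), as did chromosome X, at 2.97% ± 0.25 in ESC line 1, 4.09% in ESC line 2 and 2.10% ± 0.13 in NPC (adjusted exact permutation p = 0.0465). That test does not keep the lines apart, and the ESC lines themselves differed on chromosome X, so its pass there is not one of cell type alone. So, although NPC held more chromosome 15 junctions beyond 5 Mb among all junctions, a smaller part of its distant junctions lay 5 to 20 Mb from the break.

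The clearest local differences were at narrow sites. Sites were taken as windows of 1 kb with 30 or more junctions in the line 1 APH tables, joined within 5 kb and then measured in DMSO within 2 kb of their centre. The NPC APH table is the larger, so it weighed more in that choice. This gave 17 sites, of which 10 had junctions on both strands and 7 on 1 strand (under 10% on the lesser strand). Of the 17 sites, 13 differed at an adjusted exact permutation p under 0.05, which is 76.5%, and the 2 classes differed in opposite directions. Here too, passing depended on how many sites reached the smallest possible p.

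The both-strand sites together held 0.287, 1.79, 0.202 and 0.165% of distant junctions in ESC A to D and 2.92, 3.52, 3.15 and 2.77% in NPC. All NPC experiments lay above all ESC experiments, and ESC B, which shares junctions with NPC libraries, was the highest ESC value. The means were 0.610% ± 0.79 and 3.09% ± 0.33 (SD, n = 4 each; exact permutation p = 0.0286). Without ESC B the ESC mean was 0.218% ± 0.062 (SD, n = 3; exact permutation p = 0.0286). ESC line 2 held 0.551% ± 0.37 (SD, n = 4), with its highest value of 1.00% in experiment A, which shared 18.9% of its distant junctions with NPC line 1 D under APH.

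At 9 of these 10 sites the bases at the centre resembled the bait target, and they are printed because these 9 sites have that likeness in common. Of the 20 target bases, 13 to 18 were the same. Such likeness was not particular to this class: the busiest one-strand site, described further on, had 15 of the 20. The sequences below were read from the junction reads, each base in at least 2 reads, with bases that differ from the target in capitals, in order of their NPC level:
chr4:82963081-82963103, plus strand: caaggCcaaggtgaacacAtcga
chr15:10478316-10478338, minus strand: GCaggCcaaggtAaacaTgttgg
chr16:92516541-92516563, minus strand: GCTggCcaaggCCaacacgtcgg
chr7:109864265-109864287, minus strand: caaggAcaagAtgaacacAtgag
chr16:50963884-50963906, minus strand: TaaggtcaaggCAaacaTgtggg
chr7:35474117-35474139, plus strand: caaggCcaagAtgaacacTtcag
chr11:69393869-69393891, minus strand: TTTAgCcaGggtgaGcacgtggg
chr6:72386440-72386462, plus strand: TCCggtcaagAtgaacacCttgg
chr7:139250278-139250300, minus strand: GCaggGcaaggGgaacacAttgg
Counted from 1 at the 5′ end of the target, the chromosome 4 site has the differences T6C and G19A, and the site at 109.86 Mb of chromosome 7 has T6A, G11A and G19A. The 3 bases after the target end in 2 G at 6 of the 9 sites, and read cga, gag and cag at the other 3. For comparison, of the first 121 bases of 32848 RefSeq promoter windows (GRCm38.p6), 3.44% held a stretch with 13 or more bases equal to the target on either strand, 0.0609% one with 15 or more and 0.00304% one with 16 or more. The likeness is a description and does not show what made these junctions.

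The chromosome 4 site was the busiest distant site in NPC. It held 79, 150, 154 and 78 junctions in NPC and 0, 13, 1 and 2 in ESC, and 13 of the 16 ESC junctions came from experiment B. Per 10000 distant junctions this was a mean of 125 ± 17 for the NPC experiments and 20.8 ± 32 for the ESC experiments (SD, n = 4 each; exact permutation p = 0.0286, adjusted 0.0374 over 17 sites), and 5.02 in ESC without B. The NPC junctions stood at 287 different positions and strands. They lay on both sides of the centre, with the minus strand to the left and the plus strand to the right. The nearest promoter windows matched by sequence are those of Gm42306, 5.32 kb to the right, and Zdhhc21, 458 kb to the left. RefSeq places Cer1, an antagonist of Nodal and BMP signals, Frem1, a protein of the extracellular matrix, and Ttc39b between these windows.

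The site on chromosome 11 lies at the start of Trp53, the gene of p53. Its 23 bases are found without a difference in the RefSeq promoter windows of Trp53, at bases 9 to 31 after the start on the opposite strand, and of the neighbouring Wrap53, 138 to 116 bases before its start. They were therefore present in these p53-/- cells. The site held 14, 19, 17 and 11 junctions in NPC and 1, 1, 1 and 0 in ESC. Per 10000 distant junctions this was 17.3 ± 3.3 and 3.76 ± 2.6 (SD, n = 4 each; exact permutation p = 0.0286). Every NPC experiment lay above every ESC experiment, although only 13 of the 20 target bases are the same.

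The other sites were lower but alike in pattern. The chromosome 15 site, 255 kb from the promoter window of the prolactin receptor gene Prlr, held 24, 46, 44 and 21 junctions in NPC and 0, 4, 0 and 0 in ESC. The site at 92.5 Mb of chromosome 16, in a stretch where RefSeq places Rcan1 and the blood transcription factor Runx1, held 16, 47, 39 and 18 in NPC and 0, 4, 0 and 0 in ESC. The site at 109.86 Mb of chromosome 7 lies 1.39 kb from the promoter window of the odorant receptor gene Olfr33, and held 19, 31, 34 and 24 in NPC and 0, 3, 0 and 0 in ESC. At all 3 sites the ESC junctions came from experiment B alone.

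Of the remaining both-strand sites, those at 50.96 Mb of chromosome 16 and at 35.47 Mb of chromosome 7, 33.7 kb from the promoter window of Kctd15, also had ESC junctions in experiment B only. They held 22.5 ± 7.3 and 17.8 ± 2.1 per 10000 in NPC (SD, n = 4 each). The site at 139.25 Mb of chromosome 7 had 0 of 7935 distant junctions in ESC, which allows up to 3.78 per 10000 (counting error only), and 8.41 ± 3.6 in NPC (SD, n = 4). The chromosome 6 site, 1.97 kb from the promoter window of the noncoding gene Particl, was not distinguishable, at 4.06 ± 5.1 in ESC and 12.2 ± 6.6 in NPC (SD, n = 4 each; exact permutation p = 0.114). The 10th both-strand site, on chromosome 17, shared only 10 of the 20 target bases and held 10.0 ± 5.7 in ESC and 7.18 ± 2.7 in NPC (SD, n = 4 each; exact permutation p = 0.429).

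The tables of the other baits set these sites apart. The 9 sites that resemble the target held 0 or 1 junction each in all tables of the chromosome 7 bait together, and 0 in those of the chromosome 12 bait. The chromosome 17 site held 121 and 669.

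**Figure D4:**
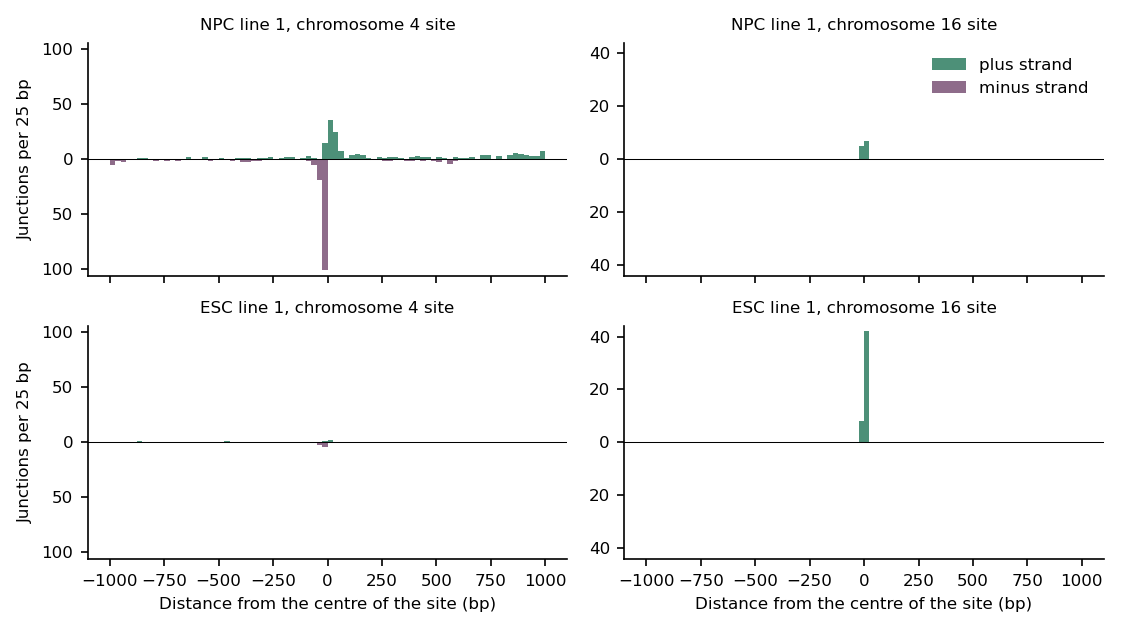
Junctions per 25 bp (vertical axes; plus strand upward, minus strand downward) against distance from the centre of the site (horizontal axes, bp), summed over 4 experiments, in NPC (top) and ESC (bottom) of line 1, at the busiest both-strand site (left, chromosome 4; 461 junctions within 2 kb in NPC and 16 in ESC) and the busiest one-strand site (right, chromosome 16; 12 in NPC and 50 in ESC). The chromosome 4 junctions spread to both sides by strand, while those of chromosome 16 stand on the plus strand at the centre.

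The one-strand sites were higher in ESC. Together they held 1.72, 0.945, 2.79 and 1.54% of distant junctions in ESC and 0.240, 0.188, 0.177 and 0.197% in NPC. The means were 1.75% ± 0.77 and 0.201% ± 0.027 (SD, n = 4 each; exact permutation p = 0.0286), and ESC line 2 held 2.11% ± 0.95 (SD, n = 4). Experiment C, from another sequencing run, was the highest ESC value in line 1, and the lowest, B, still lay above all NPC values.

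The sequences of these sites were of low complexity. Of the 7 sites, 5 held a run of a single base of 25 to 54 bases, and at these 92.3 to 100% of the junctions carried inserted bases. These 5 sites also held 11 to 38 junctions each with the chromosome 7 bait and 0 to 8 with the chromosome 12 bait. The one-strand sites on chromosomes 12 and 16 held 0 with either. The busiest, on chromosome 16, lies in 6 copies of cttgac, and is printed because it shares a run of 12 bases with the bait, in capitals:
chr16:31902127-31902169, plus strand: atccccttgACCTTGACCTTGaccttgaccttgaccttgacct
Of the 20 target bases, 15 were the same at this site, against 7 or 8 at the other one-strand sites. It held 15, 6, 15 and 14 junctions in ESC and 3, 4, 2 and 3 in NPC. Per 10000 distant junctions this was 63.8 ± 24 and 3.57 ± 1.3 (SD, n = 4 each; exact permutation p = 0.0286), and 107 in ESC line 2. These junctions stood at 6 positions in ESC and 3 in NPC, against the 287 of the chromosome 4 site.

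The chromosome 12 site, in a stretch where RefSeq places the pluripotency gene Esrrb, was the one-strand site with the most positions, 11 in ESC and 16 in NPC. It held 21.1 ± 4.9 per 10000 in ESC and 8.46 ± 3.7 in NPC (SD, n = 4 each; exact permutation p = 0.0286). Several single-base sites rested on experiment C: the chromosome 5 site held 15 of its 19 ESC junctions there, and the site at 121.20 Mb of chromosome 10 all 5. The site at 137.74 Mb of chromosome 7 held 15 junctions in ESC, 11 of them in C, and 0 of 36265 in NPC, which allows up to 0.827 per 10000. This site was not distinguishable between the cell types (exact permutation p = 0.143), nor was the one at 121.20 Mb of chromosome 10.

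**Figure D5:**
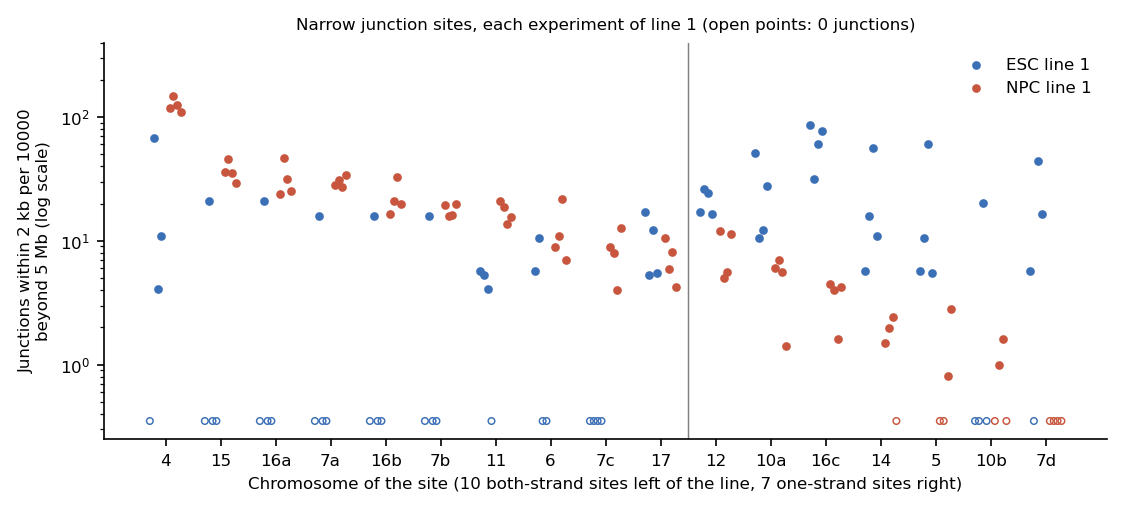
Junctions within 2 kb of each of the 17 narrow sites per 10000 distant junctions (vertical axis, log scale) by chromosome of the site (horizontal axis; letters tell sites of a chromosome apart), 1 point per experiment of line 1, with open points for experiments at 0. Among the 10 both-strand sites NPC points lie mostly above ESC points (means 125 and 20.8 at the chromosome 4 site), and among the 7 one-strand sites mostly below (3.57 and 63.8 at site 16c).

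Counted in bins of 500 kb, the comparison led back to these sites. Only 42 bins beyond 5 Mb held enough junctions for the test. The filter asked for a minimum level in 4 experiments, so a bin could enter through 1 cell type alone. The bin from 69.0 Mb of chromosome 11 (1, 3, 1 and 0 junctions in ESC, 14, 23, 24 and 14 in NPC) entered through NPC. In the other bins found higher in NPC below, the 4 ESC experiments together held 18 junctions on chromosome 4 and 4 to 7 elsewhere. The bin from 55.5 Mb of chromosome 11 entered through ESC. The direction of such bins is thus partly set by the filter, and their edgeR p-values are not separate support for it. With edgeR's quasi-likelihood test and an adjusted p under 0.05, 9 were higher in NPC (21.4%) and 5 lower (11.9%), and 18 had an unadjusted p under 0.05. On simulated counts the same test recovered 92% of 4-fold increases and 38% of 4-fold decreases in NPC, so the numbers higher and lower are not on an equal footing. Scaling mattered: the median over the 42 bins was 0.14 (log2) with TMM factors and -0.59 with distant junctions as library size, under which 8 bins were higher and 12 lower. Over the 16 labelled experiments, 14 of 34 bins passed (41.2%), 11 higher and 3 lower.

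Of the 9 bins higher in NPC, 8 held a both-strand site. The bin from 82.5 Mb of chromosome 4 was 3.41 ± 0.75 higher in NPC (log2 ± SE, edgeR adjusted p = 5.4e-05), with 536 junctions in NPC and 18 in ESC, and 57.6% of the NPC junctions stood in its busiest 1 kb. The bin from 109.5 Mb of chromosome 7 was 3.14 ± 0.67 higher and that from 69.0 Mb of chromosome 11, around Trp53, 2.40 ± 0.61 higher (log2 ± SE, edgeR adjusted p = 5.4e-05 and 0.00045). The 9th, from 58.5 Mb of chromosome 15, held 47 junctions in NPC at 45 positions and 5 in ESC, and was 1.72 ± 0.55 higher (log2 ± SE, edgeR adjusted p = 0.0073). It lies outside the rule for named bins and is named after its values were seen. It was the only one of the 9 without a narrow site, it did not pass with distant junctions as library size (1.01, edgeR adjusted p = 0.13), and its share was not higher in NPC line 2 as labelled (13.3 per 10000) than in ESC line 2 (14.7).

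Of the 5 bins lower in NPC, 3 were narrow in ESC. The bin from 31.5 Mb of chromosome 16 (-2.38 ± 0.42, log2 ± SE, edgeR adjusted p = 2.1e-06) holds the cttgac site. The bin from 97.5 Mb of chromosome 7 (-2.52 ± 0.44, log2 ± SE, edgeR adjusted p = 4.6e-05) had all its 20 ESC junctions within 1 kb, 11 of them in experiment C. The bin from 55.5 Mb of chromosome 11 held 2, 3, 3 and 4 junctions in ESC and 2, 1, 1 and 1 in NPC (-2.55 ± 0.49, log2 ± SE, edgeR adjusted p = 0.00064). The other 2, from 74.0 and 74.5 Mb of chromosome 15, lie about 12 Mb from the break, and the second of these is named outside the rule. They held 15 and 17 junctions in ESC and 15 and 19 in NPC, at -1.41 ± 0.43 and -1.27 ± 0.43 (log2 ± SE, edgeR adjusted p = 0.022 and 0.026), and did not pass when each position was counted once.

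With 10 kb around every narrow site left out, 2 of 29 bins passed (6.90%), the chromosome 11 bin at 55.5 Mb lower and the chromosome 15 bin at 58.5 Mb higher in NPC. A wider filter of 20 junctions in all kept 256 bins, of which 29 passed (11.3%), 19 higher and 10 lower with TMM factors, but 8 higher and 21 lower with distant junctions as library size, so the direction of weak bins depends on the scaling.

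The NPC to ESC difference of bait 15 was tested against that of baits 7 and 12 over pools. None of 280 bins passed with edgeR (0.00%), 10 had an unadjusted p under 0.05, and DESeq2 called 0 as well (8 unadjusted). The bin of the chromosome 4 site did not pass the filter on low counts in that test. Nor did other bins called in line 1, among them those from 55.5 and 69.0 Mb of chromosome 11 and from 10, 58.5 and 74.0 Mb of chromosome 15. The result does not cover these bins. Between the lines as labelled, edgeR called 0 of 34 bins (1 at an unadjusted p under 0.05) and DESeq2 called 0 (0 unadjusted).

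Long neural genes, where break clusters are known to form in neural progenitors under replication stress, were described where promoters matched by sequence enclosed them within 4 Mb. This held for 13 genes of the lists, 7 of 26 for neuronal adhesion and synapse, 1 of 7 for fragile sites, 4 of 9 for other break clusters and 1 of 14 on the bait chromosome. Groups did not overlap at 2 of these 13 (15.4%), in opposite directions, so no common direction is given. The stretch of Ptprt, a receptor tyrosine phosphatase of neurons, held 10, 15, 19 and 19 junctions in NPC and 2, 2, 3 and 1 in ESC, or 17.98 ± 5.8 and 9.90 ± 3.0 per 10000 (SD, n = 4 each). That of Dlg2, a scaffold of the postsynaptic density, held 4, 4, 12 and 7 in NPC and 3, 6, 14 and 3 in ESC, or 7.37 ± 2.9 and 30.5 ± 19 per 10000 (SD, n = 4 each), and 20 of the 26 ESC junctions are those of the narrow stretch at 97.5 Mb. Auts2, a neural developmental gene, had 25.7 ± 5.6 in NPC and 19.3 ± 9.3 in ESC, and the fragile site gene Wwox 22.4 ± 3.3 and 26.0 ± 18 (SD, n = 4 each), with overlapping experiments in both cases.

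The bins that gained junctions with APH in NPC of the other baits (125 bins, edgeR) were taken as a further list for the DMSO background. They held 1.43, 2.99, 1.30 and 2.09% of distant junctions in ESC A to D and 2.43, 2.50, 2.64 and 2.86% in NPC. The highest ESC value, in experiment B, exceeded every NPC value, so the groups overlap, and the means were 1.95% ± 0.78 and 2.61% ± 0.19 (SD, n = 4 each). Without B, which shares junctions with NPC libraries, the ESC values were 1.30 to 2.09% and all lay below NPC. The NPC line 1 pool under APH held 8.94%. Of the 125 bins, 87 had the higher share in NPC, beside 2913 of all 5037 bins. Of the 5037, 1746 held no ESC junction and count as higher in NPC whatever their level. Both counts thus depend on the lower depth of ESC.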

How the data were processed

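Junctions of HTGTS libraries (made by LAM-PCR according to the labels) were read from 4 deposited tables of 1 junction read per row. Reads were aligned with Bowtie2 to mm9, per the submitters' processing notes; no source used here names their versions, the junction caller or its filters. The deposited values are raw junction counts per position, per the file headers, without normalization; a read name listed again in a table was dropped. Lettered experiments were the samples, with depths given in the text. The plan named all 16 experiments as the main comparison; because NPC line 2 repeated libraries of line 1, line 1 was used in its place, a choice made after seeing the data. The members and lists were chosen with earlier results of these data known.

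Shares were compared by exact permutation tests, two-sided, with Benjamini-Hochberg adjustment over each family (scipy 1.17.1). Bins of 500 kb outside 5 Mb of the break were kept by filterByExpr (minimum count 5, total 15) and tested by edgeR 4.0.16 (quasi-likelihood; R 4.3.3) with TMM factors; DESeq2 1.42.0 was an alternative. Bins named were those past an adjusted p of 0.05, up to 15 per direction with the same sign in both lines, and exceptions are said to be so. The sign in line 2 is not separate evidence, because NPC line 2 matches line 1 libraries. On simulated counts for 42 bins of line 1 the test recovered 92% of 4-fold increases in NPC, 38% of 4-fold decreases and 20% of 2-fold changes, and 3.41% of its calls were unchanged bins; for 256 bins it recovered 91.5 and 7.5% of 4-fold increases and decreases. Alternatives were other bin sizes, library sizes and filters, repeats counted once, a replicate block and each experiment left out. Gene names come from exact matches of 40 bases of reads to RefSeq promoter windows (GRCm38.p6), at 1404 genes; no coordinates were converted, and the planned test of genes of 100 kb or more was not run. Reads carry no molecular identifiers, so repeats may be copies of 1 molecule.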

Additional observations from a re-analysis of the deposited data

Results flagged for a closer look

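In groups of 4 experiments, a value was singled out where its gap to the next was above Dixon's critical share of the group's range; 93 groups were checked and 5 values stood apart, where chance alone gives about 1 in 20. In ESC line 1, experiment B stood apart in the both-strand narrow sites, with 1.79% of distant junctions against 0.165 to 0.287% in A, C and D, and in the median distance of upstream minus-strand joins, at 1751 bp against 1613 to 1636 bp. The same experiment shares 28.7% of its distinct distant junctions with the 8 NPC line 1 libraries (DMSO and APH) together, against 2.37 to 4.37% in A, C and D, and its part in the result is given by the values without it. NPC line 1 A held 4.09% of its junctions from 10 kb to 5 Mb, against 3.61 to 3.67% in B to D. In ESC line 2, upstream plus-strand joins were 4.99% of the near-break junctions in experiment C, against 5.35 to 5.42%, and blunt joins were 5.22% of distant junctions in experiment D, against 5.89 to 5.92%.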

How the results depend on the processing

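Of the 14 bins that passed, the total became 9 with 250 kb bins, 47 without a filter, 7 without NPC line 2 A and D among the labelled experiments, 2 over 4 pools, 5 with 8 ESC experiments, 29 with 20 junctions in all (29 also with distant junctions as library size) and 2 without narrow sites. The number of bins tested changed with each. Leaving out 1 experiment gave 6 to 25; the most, 25 of 116 bins, came without ESC B, and 6 of 11 came without any 1 of the NPC experiments. The difference between lines stayed at 0, which says little because NPC line 2 matches line 1 libraries. That between baits became 2 with line 2 of bait 15 as labelled.

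Of the 13 shares, 11 to 13 passed when 1 experiment was left out. The ranges were -20.6 to -19.5 points within 10 kb, 17.3 to 18.3 on other chromosomes, 7.44 to 10.1 for microhomology and -9.29 to -6.51 for inserted bases, which did not pass with 3 NPC experiments. Narrow sites ranged from 2.33 to 2.87 points on both strands and from -1.82 to -1.20 on 1 strand, likewise not passing with 3 NPC experiments. The groups still did not overlap in these cases. With groups of unequal size, the two-sided test can also count a reversed arrangement with as large a difference, which raises its p. Not passing therefore does not mean a weaker difference here.

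Deviations of ESC and NPC experiments of equal letter correlated at 0.47, 0.10, 0.56 and 0.03, not over 0.1 in every pair as was required to treat the letters as pairs, and 2 of 4 ESC experiments (A and C) correlated best with their own letter. With a replicate block 15 of 42 bins passed, and 0 of 13 shares, since 4 pairs cannot go below an exact p of 0.125; the differences stay at -20.0, 17.8, 8.80 and -7.96 points.

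Signs turned for the upstream median distance (105 bp with positions counted once, 168.5 bp over 16 labelled experiments with or without the block, 458 bp in line 2 as labelled), for distant blunt joins in line 2 as labelled (0.198 points) and for the 74.5 Mb bin of chromosome 15 there (0.76, log2). The cause was not tested. Depth in ESC limits all site and bin values.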

Other observations

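Junctions near the bait site of chromosome 12 appeared in some libraries of the chromosome 15 bait, and their origin was not tested. Within 2 kb of the chromosome 12 bait break, the chromosome 15 bait tables held 31 junctions in ESC line 1 B, 66 in ESC line 2 A, 27 in NPC line 1 A, 13 in NPC line 2 A and 7 in ESC line 2 B, and 0 or 1 in the other experiments. ESC line 1 B and ESC line 2 A are also the ESC experiments with the most distant junctions in common with NPC libraries, at 28.7 and 25.3%.

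The shares of the bins that gained junctions with APH in NPC of the other baits set the labelled NPC line 2 experiments apart. Experiments A and D, labelled DMSO, held 11.3 and 8.20% of their distant junctions there, and B and C held 2.52 and 2.63%. The NPC line 1 pool under APH held 8.94%, and the ESC line 1 pool under APH 5.07%.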
